A study of Bos taurus with 8 samples.

Results

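The 2 arrays of 0 mo were compared, 1 array labelled housed and 1 labelled grazing, each hybridized with 1 pool of plasma exosomal RNA taken before the feeding trial began. They were chosen by their label and time point, and are 2 of the 8 arrays of the series. The study followed 6 Japanese Shorthorn steers aged 21 to 28 months, raised on grass and divided at random into a housed and a grazing group of 3. Jugular blood was drawn at 0, 1, 2 and 4 mo for the arrays, exosomes were pelleted from EDTA plasma by ultracentrifugation, and the RNA of the 3 steers of a group was mixed at each time point. At 0 mo neither group had been grazed in the trial, so the labels name the treatment that was to come. With 1 pool per group, no replicate exists, and a difference between the pools cannot be told apart from a difference between single steers or between arrays.

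MicroRNAs (miRNAs) are short RNAs that guide the silencing complex to partly complementary messenger RNAs. Cells release some of them into blood inside exosomes, small vesicles with a membrane, and plasma exosomes therefore carry miRNAs of red cells, platelets, leukocytes, endothelium and organs such as the liver. The array measures them by the brightness of short DNA probes complementary to each miRNA, and probes differ in how tightly they bind.

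The probes below belong to the miRNAs on which the comparison turned, and show what the array bound. Each is the longest probe of its miRNA as the deposited array files give it, read 5′ to 3′, so that it is complementary to the RNA it detects. In the first set, capitals mark the 6 bases ACACAC wherever they occur in the probe. These are the probes with that repeat whose miRNA was detected at 0 mo.
miR-2304: ACACACACaaccacac
miR-574: cACACACtcACACACa
miR-2288: aaaccACACACctactac
miR-664: catccACACACACcc

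In the second set, capitals mark the longest run of bases that are only C or T. It holds the 4 probes of this kind whose miRNA was at least 2-fold higher on the array labelled housed, and the 2 brightest that were detected on that array alone.
miR-2412: CCCTCTCCCCacc
miR-2406: aatccagCTTCCTTCTTC
miR-2410: tcacaggTCCTCCTC
miR-6528: CCTCCTTCCCTCTTC
miR-6530: ccgtcttaCCTTCCTC
miR-2366: ccagaCCCTCTTCTg

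In the third set are the brightest probe of both arrays and 3 others with high shares. Capitals mark an opening TGG in miR-2478 and miR-1260b, and all G and C bases in miR-1777b and miR-1777a.
miR-2478: TGGtgtcagaagtggg
miR-1260b: TGGtggcagtggtg
miR-1777b: CCCCGCCCCCC
miR-1777a: CCCGCCCCCCa

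The array design placed these probes on the bovine build UMD_3.1, the probe of miR-2412 at chr3:18845860-18845871, that of miR-2406 at chr29:42859588-42859604 and that of miR-2410 at chr29:51051789-51051802. The probe of miR-6528 was placed at chr15:74543922-74543935, that of miR-2304 at chr13:28799354-28799368, that of miR-574 at chr18:63074675-63074689 and that of miR-2478 at chr9:28046330-28046344. In the RefSeq gene table of ARS-UCD2.0, which was used for names and overlaps only, the gene of miR-2304 lay within FRMD4A, that of miR-2288 within CPNE4, that of miR-2406 within MARK2 and that of miR-2410 within DEAF1. No host gene was found there for miR-2412, miR-6528, miR-574 or miR-2478, and miR-664 had no entry. Whether a site is exonic or intronic was not analysed here, since no annotation of UMD_3.1 was used.

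The names of the groups carry a limit. The headings of the study's own value table name the pair the other way round from the deposited labels. The column headed G-1, which the legend gives as grazing, matched the array labelled housed to within 1% for 226 of its 226 detected miRNAs. The column headed A-1 matched the array labelled grazing as closely for 167 of 167. The later months were exchanged in the same way. Columns G-2, G-3 and G-4 matched the arrays labelled housed 1, 2 and 4 mo for 185 of 185, 166 of 166 and 182 of 182. Columns A-2, A-3 and A-4 matched those labelled grazing for 149 of 149, 163 of 163 and 160 of 160. The study's written description of the housed profile before the trial, with miR-1260b next after miR-2478, also goes with the array labelled grazing, since miR-2412 came next on the array labelled housed. The arrays are called here by their deposited labels, and every direction between the pools is the opposite one by those headings and that description.

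Both arrays lay on 1 slide and were read in 1 scan. The position of the array labelled housed was numbered 1 and 1 on the slide and that of the array labelled grazing 2 and 1, and the first number was 1 for all arrays labelled housed and 2 for all labelled grazing, so that this position and the label cannot be told apart.

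Most miRNAs were brighter on the array labelled housed, by factors that varied, while the spike-in controls differed little between the arrays. The summed total signal of its detected miRNAs was 157696 and that of the array labelled grazing 57316, a ratio of 2.75. Over the miRNAs detected on both arrays and without miR-2412 the ratio was 2.31. Total signal is the scanner software's background-subtracted value for a miRNA, the sum of the values it gives to the probes of that miRNA. It rests on 40 spots and is not on the scale of single spots, whose brightness is given below as it was measured. Among the miRNAs detected on both arrays, 155 had the higher total signal on the array labelled housed and 7 on the array labelled grazing, and the median ratio was 2.97.

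The 4 spike-in control probes had ratios of total signal, labelled housed over labelled grazing, between 0.926 and 1.18. The control named dmr_3 had a total signal of 9497 ± 683 (scanner error estimate) on the array labelled housed and 10066 ± 721 on the array labelled grazing. For dmr_31a the total signals were 435 ± 31.1 and 369 ± 26.4. These controls thus did not share the difference in brightness of the miRNAs.

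Control probes of a second kind, whose names begin with hur and whose target the files do not name, differed in the same direction as the miRNAs where they were above background, which were 4. hur_1 had a total signal of 5680 ± 288 on the array labelled housed and 1710 ± 86.8 on the array labelled grazing, a ratio of 3.32. The ratio was 2.82 for hur_2, 3.40 for hur_4 and 1.84 for hur_6, and hur_5 was not above background, with total signals of -2.07 and -1.23. Another control, named miRNABrightCorner30, had total signals of 5014 ± 505 and 3644 ± 368, a ratio of 1.38. The same weight of RNA, 100 ng, was labelled for each array. How much of it was miRNA in each pool was not measured on the arrays, and its part in the difference in brightness was not tested.

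**Figure D1:**
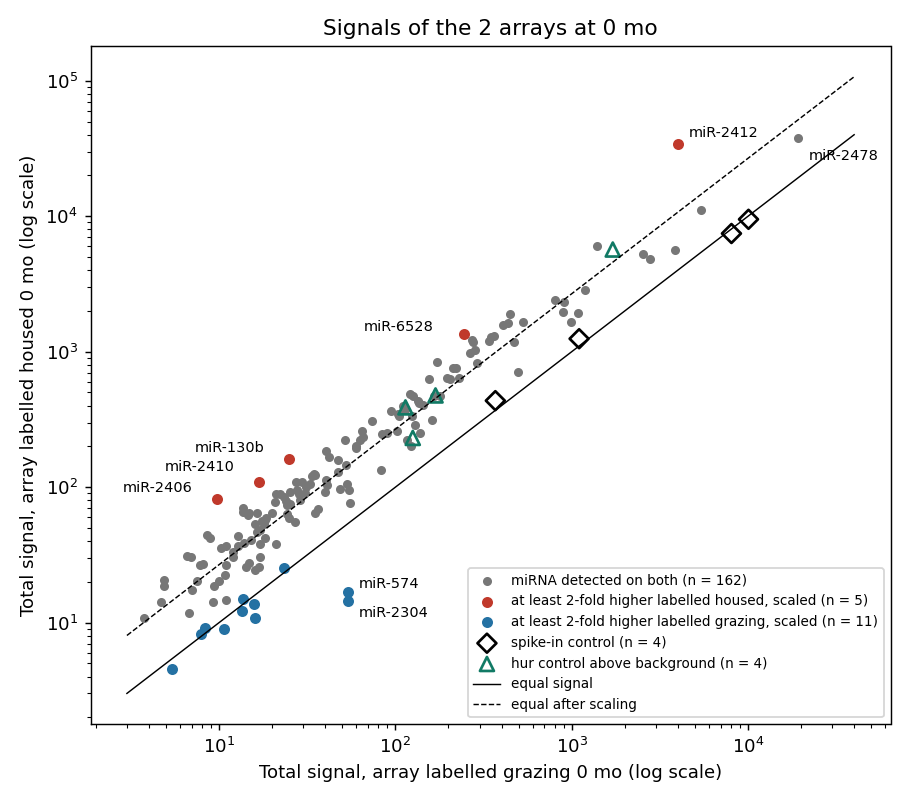
Total signal of each miRNA detected on both arrays (n = 162), array labelled grazing 0 mo on the horizontal and labelled housed 0 mo on the vertical axis, both on log scales, with spike-in (diamonds) and hur (triangles) controls. The solid line marks equal signal and the dashed line equal signal after scaling, and the spike-in controls lie at the solid line while most miRNAs lie near the dashed line.

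Because of this, levels were compared relative to the 90th percentile of the total signals of all 744 bovine miRNAs on the same array. That percentile was 109 on the array labelled housed and 40.7 on the array labelled grazing, a ratio of 2.68. A level difference is the log2 of this scaled signal, labelled housed minus labelled grazing, and its error estimate combines the scanner's error estimates of both arrays. It covers the spots of 1 array each, and not steers. Since a level is relative to the same array, a loss shared by all miRNAs does not show in it. A lower level can be relatively fewer of the vesicles that carry a miRNA, less of it in each, or a difference between the arrays, and these cannot be told apart.

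The scanner's detection flag was set for 226 of the 744 miRNAs (30.4%) on the array labelled housed and for 167 (22.4%) on the array labelled grazing. Both arrays had it for 162, 64 (8.60%) had it on the array labelled housed only, 5 (0.672%) on the array labelled grazing only, and 513 on neither. The lowest total signal with a flag was 4.00 on the array labelled housed and 3.75 on the array labelled grazing. Every miRNA flagged on any of the 8 arrays, 231 in all, was flagged on at least 1 of these 2.

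The 64 miRNAs flagged on the array labelled housed only were dim, with a median total signal of 9.39 and a highest of 31.1. For 61 of them the total signal on the array labelled grazing was above 0. A bound on the fold was taken as the scaled signal on the flagged array over the higher of the lowest flagged and the miRNA's own signal on the other array, scaled likewise. This bound was under 1 for 40 of the 64, so for these the missing flag sets no difference in level, and it reached 2 for 5.

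Those 5 were also the 5 brightest, and 2 of them have the pyrimidine runs shown above. miR-6530 had a total signal of 31.1 on the array labelled housed and 1.84 on the array labelled grazing, at least 3.09-fold higher after scaling. miR-2366 had 30.2 and 2.48, at least 3.00-fold higher. The signal of miR-6530 came from its longest probe, whose 20 spots ranged from 86.0 to 136 on the array labelled housed and from -0.883 to 19.02 on the array labelled grazing, and the ranges did not overlap.

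The other 3 were miR-194, miR-2436-5p and miR-6529. miR-194, a miRNA known from liver and gut epithelium, had total signals of 26.03 and 3.86, at least 2.52-fold higher on the array labelled housed. For miR-2436-5p the bound was 2.36 and for miR-6529 it was 2.08.

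The 5 miRNAs flagged on the array labelled grazing only were dim too, and none was flagged on any of the other 7 arrays. After scaling, their bounds ran from 8.05-fold to 12.2-fold higher there, and these bounds leave out the error estimates of the signals. Without scaling, the bounds ran from 3.00 to 4.55.

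miR-2313-5p had a total signal of 18.2 on the array labelled grazing and -0.322 on the array labelled housed, and it was between -3.10 and -0.823 on the 6 later arrays. miR-2284d had 17.7 and 0.888, and miR-2284l, a member of the same large family of cattle miRNAs, had 12.0 and 0.604. For miR-2891 the total signals were 12.7 and 0.822, and for miR-664, whose probe has the ACACAC repeat, they were 14.9 and 3.70. Of these, miR-664 alone had a total signal above 3 on the array labelled housed, at 3.70, and it was between 0.365 and 5.14 on the later arrays.

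Both probes of miR-2284d carried its signal. The 20 spots of its longest probe ranged from 25.3 to 50.5 on the array labelled grazing and from -2.25 to 21.5 on the array labelled housed, and those of the other probe from 14.2 to 39.3 and from -8.50 to 12.0. The groups of spots of each probe did not overlap. For miR-2313-5p, 20 of the 20 spots of the longest probe were well above background on the array labelled grazing and 0 on the array labelled housed, but for its other probe the count was 4 against 0. For the longest and the other probe, the counts on the array labelled grazing were 18 and 10 for miR-664. They were 12 and 5 for miR-2891 and 7 and 3 for miR-2284l, and all were 0 on the array labelled housed.

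The exosomal profile was shared in outline, and among several shares that differed, that of miR-2412 differed most. Across the 162 miRNAs detected on both arrays, the total signals had a Spearman's rho of 0.94, as a description over miRNAs measured with the same probes. The share of a miRNA is its total signal in percent of the sum over all miRNAs detected on its array, and it describes signal and not numbers of molecules. Share errors were carried from the scanner's error estimates of all detected miRNAs, taken as independent of one another. The 20 brightest held 81.7% ± 0.509 of the signal on the array labelled housed and 84.3% ± 0.502 on the array labelled grazing, and 18 were the same miRNAs.

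miR-2412 held 21.7% ± 1.29 of the signal on the array labelled housed and 6.98% ± 0.506 on the array labelled grazing, a gap well beyond the error estimates. Its total signals were 34152 ± 2415 and 4002 ± 283. miR-2478 was the brightest miRNA on both arrays, with shares of 24.05% ± 1.56 and 33.6% ± 1.91. Together they held 45.7% and 40.6% of the signal, and the 3 brightest miRNAs of each array held more than all others of that array together.

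Among the other miRNAs with high shares, miR-1777b, whose probe consists of G and C alone, held 3.56% ± 0.261 on the array labelled housed and 6.70% ± 0.489 on the array labelled grazing. miR-1260b held 7.07% ± 0.572 and 9.48% ± 0.771. miR-126-3p, the miRNA of endothelium and platelets whose gene lies in EGFL7, went the other way, with 3.86% ± 0.299 and 2.44% ± 0.195. The shares of miR-451, a red cell miRNA, were 1.52% ± 0.151 and 1.41% ± 0.141, within their error estimates of each other.

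The probes of miR-2478 and miR-1260b, shown above, both open with TGG, which pairs with an RNA ending in CCA. Mature transfer RNAs are known to end in CCA. Of the 744 longest probes, 10 (1.34%) open with TGG, and the 5 of these that were detected held 33.4% of the signal on the array labelled housed and 45.2% on the array labelled grazing. miR-2478 and miR-1260b made up 31.1% and 43.1%, and the other members were miR-223, miR-23a and miR-2328-3p, of which miR-223 and miR-23a are well-established miRNAs. The pattern was noticed after the values were seen, and what was bound by these probes was not tested.

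**Figure D2:**
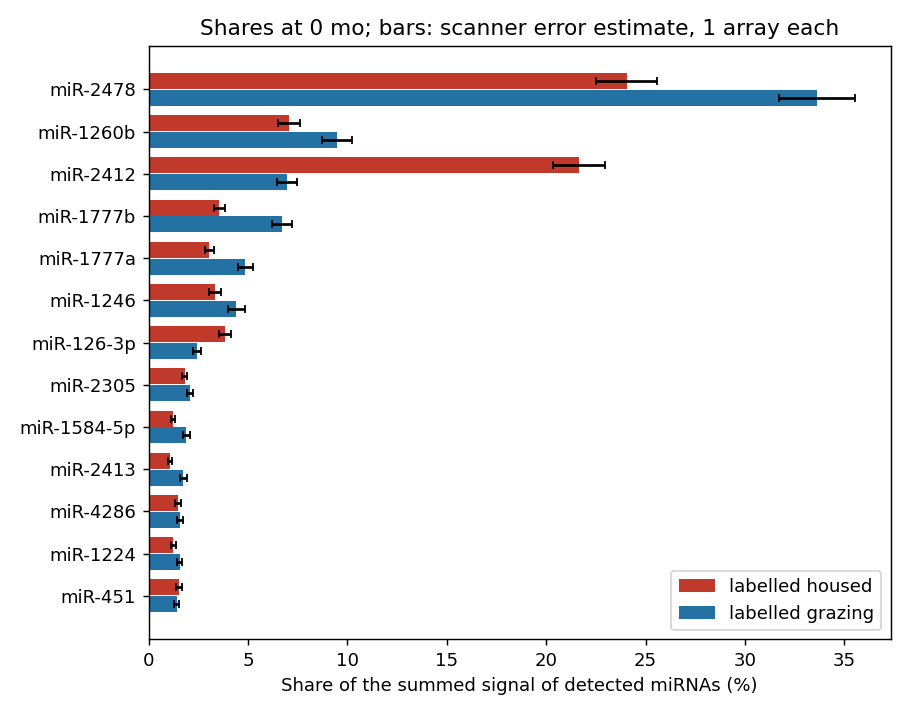
Share of the summed signal of detected miRNAs, in percent, for the 13 miRNAs among the 12 highest shares of either 0 mo array, with bars for the array labelled housed and the array labelled grazing. Error bars are the scanner error estimates carried to the share, 1 array each, and miR-2412 is the miRNA whose bars are farthest apart.

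Of the 162 miRNAs, 146 lay within 2-fold of each other after scaling. The level was at least 2-fold higher on the array labelled housed for 5 (3.09%) and on the array labelled grazing for 11 (6.79%), or 16 in all (9.88%). The median level difference was 0.15, and the quartiles were -0.38 and 0.44. The median error estimate was 0.19, and 86 of the 162 differed by more than 2 error estimates, 49 upward (30.2%) and 37 downward (22.8%), or 53.1% in all. With the percentile taken over the 162 miRNAs only, 11 (6.79%) did so upward and 61 (37.7%) downward. Above 0 were 103 (63.6%).

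miR-2412 was the largest of the 5 higher on the array labelled housed, with a level difference of 1.67 ± 0.14, or 3.19-fold. Both of its probes showed it. The 20 spots of the longest ranged from 57028 to 62456 on the array labelled housed and from 6763 to 7251 on the array labelled grazing, and those of the other from 56351 to 62205 and from 6800 to 7496. The ranges of both probes did not overlap, but they are unscaled spots of 1 array each, and those of the longest probe of let-7g, with a level difference of 0.22, did not overlap either, from 1208 to 1665 and from 404 to 511.

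miR-2406 had total signals of 81.2 ± 8.11 and 9.71 ± 1.90, a level difference of 1.64 ± 0.32. The signal rested on its longest probe, with 13 spots from 395 to 525 on the array labelled housed and from 38.7 to 71.2 on the array labelled grazing. For its 2 shorter probes, 0 spots were well above background on either array. miR-2410 likewise rested on its longest probe, with total signals of 109 and 16.9 and a level difference of 1.27 ± 0.26.

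miR-6528 had total signals of 1346 ± 101 and 246 ± 18.6, and both of its probes shared the difference, with level differences of 1.04 and 1.03. miR-130b, which belongs to the miR-130 and miR-301 family, was the 1 member of the 5 without a run of at least 8 pyrimidines (C or T) in its longest probe. Its total signals were 162 ± 11.8 and 24.9 ± 2.68, and its 2 probes had level differences of 1.38 and 1.22. Just under 2-fold were miR-22-3p at 0.97 ± 0.40, miR-2295 at 0.94 ± 0.26, miR-27b at 0.86 ± 0.15, miR-193a-3p at 0.84 ± 0.27 and miR-32 at 0.83 ± 0.38.

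With normexp background correction, an alternative that adds an offset of 50 to every spot and so draws dim signals together, 3 of the 5 came under 2-fold, miR-2406 at 0.27, miR-2410 at 0.46 and miR-130b at 0.76. Of those just under 2-fold, miR-2295 came to 0.18, miR-193a-3p to 0.11, miR-22-3p to -0.068 and miR-32 to -0.085, so that the direction of the last 2 turned. Going the other way, miR-126-3p rose to 1.18 with normexp, and 7 miRNAs in all were at least 2-fold higher on the array labelled housed. The highest value of miR-27b over the alternatives with scaling, that to the spike-ins left out, was 1.18 too.

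The 11 higher on the array labelled grazing were dim. Their total signals ran from 5.401 to 54.1 on that array and from 4.52 to 25.3 on the array labelled housed, and 9 were under 30 on both arrays. Without scaling, 7 of the 11 were brighter on the array labelled grazing. Among these, miR-760-5p, miR-2425-3p, miR-2486-5p and miR-885 differed by less than their error estimates. Their unscaled log2 differences were -0.26 ± 0.58, -0.25 ± 0.42, -0.21 ± 0.30 and -0.15 ± 0.34.

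miR-2304 and miR-574 were farthest from the rest. miR-2304 had total signals of 14.5 ± 2.12 on the array labelled housed and 54.1 ± 4.31 on the array labelled grazing, a level difference of -3.33 ± 0.24, or 10.03-fold. miR-574 had 17.0 ± 2.24 and 54.1 ± 4.31, a difference of -3.09 ± 0.22, or 8.54-fold. With normexp the differences were -1.68 for miR-2304 and -1.62 for miR-574. The spots of the longest probe of miR-2304 ranged from 18.5 to 35.8 and from 47.4 to 115, and did not overlap. Those of miR-574 ranged from 24.2 to 58.1 and from 53.4 to 121, and overlapped, while those of its shorter probe, from 8.06 to 40.02 and from 75.9 to 101, did not.

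miR-2288 followed with total signals of 10.74 ± 1.79 and 16.1 ± 1.88 and a difference of -2.002 ± 0.29. Its longest probe had a difference of -1.21, and without scaling was 1.16-fold brighter on the array labelled housed, while its shorter probes were well above background on 0 spots of that array and on 3 and 4 of the array labelled grazing. The next were miR-760-5p at -1.68 ± 0.58, miR-2425-3p at -1.67 ± 0.42, miR-2486-5p at -1.63 ± 0.30 and miR-885 at -1.57 ± 0.34. For miR-760-5p the longest probe alone had spots well above background, 6 on the array labelled housed and 1 on the array labelled grazing, and it differed by -0.97, under 2-fold, and without scaling was 1.37-fold brighter on the array labelled housed. With normexp, 8 of the 11 came under 2-fold, miR-760-5p, miR-2425-3p, miR-2486-5p and miR-885 among them. The last named by rank were miR-181b at -1.37 ± 0.51, miR-188 at -1.31 ± 0.22 and miR-2356 at -1.30 ± 0.47. For these 3 the unscaled signals, 8.20 ± 2.00 and 7.91 ± 2.05 for miR-181b and 25.3 ± 2.59 and 23.5 ± 2.60 for miR-188, differed by less than their error estimates and were slightly higher on the array labelled housed. The longest probe of miR-188 differed by -0.85, under 2-fold, and its shorter probe by -1.70. For miR-2356 the longest probe had 0 spots well above background on either array. Its shorter probe had 3 on the array labelled housed and 2 on the array labelled grazing.

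Over the 16 miRNAs at least 2-fold apart, 25 probes stood above 3 times their own error on both arrays. After scaling they had the sign of their miRNA, which the choice of the 16 largely fixes, since a total signal is the sum over the probes. At least 2 such probes were available for 9 of the 16. Without scaling, 7 of the 17 such probes of the miRNAs higher on the array labelled grazing were brighter on the array labelled housed.

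Some of the miRNAs at least 2-fold apart had 1 of 2 kinds of base run in their probes. A run of C or T was present for 4 of the 5 higher on the array labelled housed, and ACACAC for 3 of the 11 higher on the array labelled grazing. The other 8 of those 11, miR-760-5p and miR-2425-3p among them, had neither run. These runs were looked for after the values were seen, so their counts are a description and not a test. ACACAC was found in the longest probe of 11 of the 744 miRNAs (1.48%), searched on the probe strand, and its reverse complement GTGTGT in 1. A run of at least 8 bases of only C or T was found in 26 (3.49%), and a run of at least 8 of only A or G, its reverse complement, in 35 (4.70%). No probe held both ACACAC and a C or T run.

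The total signal of all 11 miRNAs with ACACAC was higher on the array labelled grazing, detected or not, against 155 of all 744 (20.8%). For 10 of the 11 it was the highest of the 8 arrays there, against 14.9% of all miRNAs. The 3 detected on both arrays, miR-2304, miR-574 and miR-2288, had the 3 lowest level differences of the 162. miR-206, a skeletal muscle miRNA with this repeat in its probe, was not detected, with total signals of -0.960 and 5.66.

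Of the 26 miRNAs with a C or T run, 21 were detected on the array labelled housed and 10 on the array labelled grazing, the latter all on both, against 30.4% and 22.4% of all miRNAs. For 0 of the 26 was the total signal higher on the array labelled grazing, and all 21 detected miRNAs had their highest signal of the 8 arrays on the array labelled housed 0 mo, as had 174 of all 231. Their median level difference was 0.82, with 6 of 10 above 0, against 63.6% of all 162, and 4 at least 2-fold higher on the array labelled housed, against 3.09%. Below 0 after scaling were miR-2305 at -0.15, miR-2328-3p at -0.09, miR-2374 at -0.46 and miR-2407 at -0.54, which without scaling were all brighter on the array labelled housed. With miR-2412 among them, they held 25.7% of the signal on the array labelled housed and 10.8% on the array labelled grazing.

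Across the miRNAs without either kind of probe, the level difference fell with the GC share of the probe. In the 162, Spearman's rho of level difference and GC share of the longest probe was -0.54, and it was -0.63 in the 149 without ACACAC or a C or T run. The median level difference was 0.42 for the 23 miRNAs with a GC share under 40%, all of which were above 0. It was 0.32 for the 74 from 40% to under 60%, and -0.40 for the 65 of 60% and over, of which 20 were above 0. Of all 162, 63.6% were above 0. With the percentile over the 162 miRNAs these medians were 0.035, -0.060 and -0.78, so their signs and the counts above 0 depend on the scaling.

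Without scaling, the median ratio of total signals, labelled housed over labelled grazing, was 3.58 in the lowest class, 3.35 in the middle class and 2.03 in the highest. Short probes are GC-rich on this array, with a rho of -0.93 between length and GC share, so length and GC share cannot be told apart. The points share the probes, the slide and the scan.

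miR-1777b, with G and C at every base, had a level difference of -0.88 ± 0.15, and miR-1777a, with 90.9%, one of -0.63 ± 0.14, both on the scaled signal. Without scaling these were 0.55 and 0.79. When the miRNAs were ranked by signal and cut into 4 classes, the median was -0.15 in the dimmest 41 miRNAs and between 0.22 and 0.27 in the other classes, and the dimmest held 9 of the 11 miRNAs at least 2-fold higher on the array labelled grazing.

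**Figure D3:**
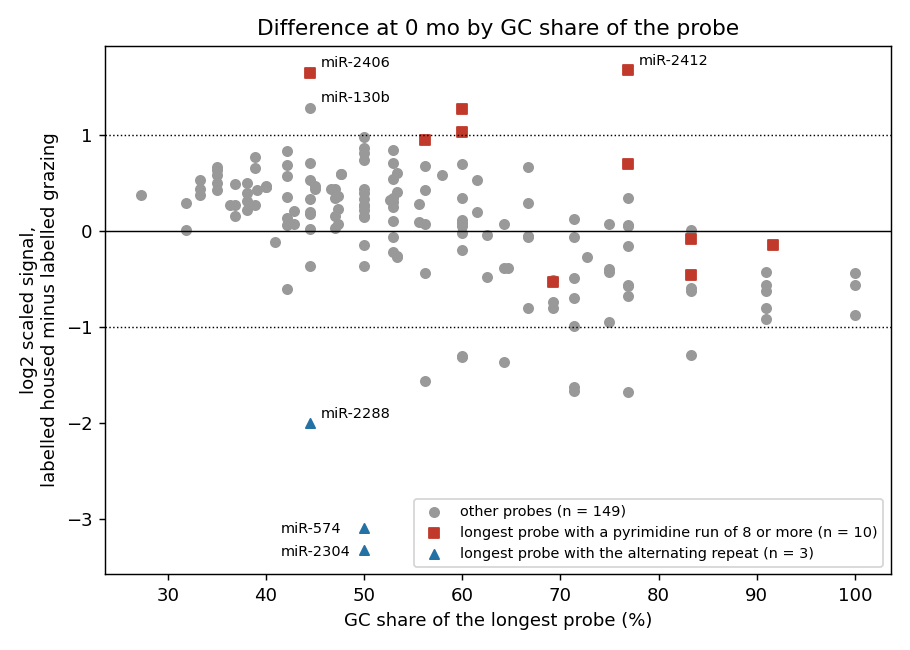
Level difference (log2 scaled signal, labelled housed minus labelled grazing) of the 162 miRNAs detected on both arrays against the GC share of the longest probe in percent, with dotted lines at 2-fold. Squares are probes with a C or T run (n = 10), triangles those with ACACAC (n = 3), and the remaining points fall from left to right.

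Groups of miRNAs known from blood cells and tissues, and families of related miRNAs, were set against the median level difference of 0.15 over all 162. Of the 62 members of these lists detected on both arrays, 0 were at least 2-fold higher on the array labelled housed, against 3.09% of all 162, and 1, miR-181b of the lymphocyte list, was so on the array labelled grazing, against 6.79%. These calls changed with normexp, where miR-126-3p came to 1.18, past 2-fold, and miR-181b to -0.86, under 2-fold. For miR-27b the highest value over the alternatives with scaling, that to the spike-ins left out, was 1.18. miR-194 of the liver list, flagged on the array labelled housed only, was at least 2.52-fold higher there, as given above. Taking the percentile over the 162 miRNAs instead of all 744 lowered each level difference by the same amount and the median to -0.23, so that list medians are to be read against that of all miRNAs and not against 0. With that percentile, 6.79% of the 162 differed by more than 2 error estimates upward and 37.7% downward. Probe GC share, described above, differs between lists, and its part in their medians was not tested.

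All 4 red cell miRNAs were detected on both arrays, with a median difference of 0.09, and 0 of them differed by more than 2 error estimates, against 53.1% of all 162, while with the percentile over the 162 miRNAs 2 did so downward. miR-451, which drives red cell maturation together with its cluster partner miR-144, had total signals of 2400 ± 233 and 807 ± 77.9 and a difference of 0.15 ± 0.20. miR-144 differed by 0.29 ± 0.15 and miR-486 by -0.07 ± 0.15. Their summed share was 1.89% on the array labelled housed and 1.77% on the array labelled grazing.

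The platelet and endothelial miRNAs had a median of 0.53, above that of all miRNAs, and 6 of the 7 detected were above 0, against 63.6% of all 162. More than 2 error estimates upward were 3 of these, against 30.2% of all 162, and 2 with the percentile over the 162 miRNAs. miR-126-3p differed by 0.70 ± 0.15, with total signals of 6083 ± 461 and 1399 ± 106. miR-24-3p differed by 0.74 ± 0.15 and miR-21-5p by 0.64 ± 0.13, while miR-197 went the other way at -0.39 ± 0.19. The most abundant was miR-126-3p, and the summed share of the list was 5.14% and 3.33%.

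In the leukocyte lists, miR-223 of myeloid cells differed by 0.21 ± 0.15, with total signals of 1645 and 532. miR-142-5p, which is made across blood cell types, differed by 0.66 ± 0.15, while its partner strand miR-142-3p was not detected. Of the 9 lymphocyte miRNAs 5 were detected on both arrays, with a median of 0.14, miR-150 at 0.26 ± 0.19 and miR-155 at 0.27 ± 0.22 among them. Below 0 were miR-181a, at -0.21 ± 0.24, and miR-181b, the 1 member beyond 2 error estimates, at -1.37 ± 0.51. With the percentile over the 162 miRNAs both were beyond 2 error estimates downward. The median of the lymphocyte list was -0.24 with that percentile, against -0.23 for all miRNAs. It was -0.047 after quantile normalization, against 0.059 for all miRNAs. With normexp it was -0.10, where the median of all miRNAs is given below with the liver list. miR-146a was at -0.386 and 0.654 in total signal and not detected on either array.

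Of the 4 liver miRNAs 3 were detected on both arrays, with a median of 0.17. It leaves out the fourth, miR-194, with its bound of at least 2.52-fold on the array labelled housed. The median turned to -0.59 with normexp, where that of all miRNAs was 0.019. With the percentile over the miRNAs detected on both arrays it was -0.21, against -0.23 for all miRNAs. Its highest value over the alternatives with scaling, that to the spike-ins left out, was 0.46. The most specific of the list, miR-122, was near the detection limit, with total signals of 11.8 and 6.72. It differed by -0.61 ± 0.50, and miR-192 by 0.17 ± 0.47. miR-148a, at 0.46 ± 0.18, was the 1 liver miRNA beyond 2 error estimates. With the percentile over the miRNAs detected on both arrays 0 were. Of the 7 muscle miRNAs, 0 were detected on the array labelled grazing and 1, miR-133b, on the array labelled housed, with a total signal of 5.15. miR-1 was at 0.875 and -0.972.

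The let-7 miRNAs share a seed, the stretch near the 5′ end that pairs with targets, and repress genes of growth and the cell cycle. All 9 members, miR-98 included, were above 0, against 63.6% of all 162, from 0.06 ± 0.17 for let-7c to 0.57 ± 0.16 for let-7e, with a median of 0.22. With the percentile taken over the miRNAs detected on both arrays the let-7 median was -0.16, against -0.23 for all miRNAs. let-7g, which the study used as the reference of its PCR assays, differed by 0.22 ± 0.15. The 6 miR-15 and miR-16 miRNAs detected on both arrays, known for holding back the cell cycle, had a median of 0.59, and 5 of them exceeded 2 error estimates upward, against 30.2% of all 162. With the percentile over the 162 miRNAs 1 did, miR-16a. The largest was miR-16a at 0.76 ± 0.18.

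The 7 detected members of the miR-23, miR-27, miR-24 and miR-26 families had a median of 0.43, and 6 exceeded 2 error estimates upward, against 30.2% of all 162. With the percentile over the 162 miRNAs 2 did, miR-27b and miR-24-3p. miR-27b, at 0.86 ± 0.15 with total signals of 839 and 173, was their highest. The 3 detected miR-29 miRNAs lay between 0.27 and 0.50. The 6 miR-30 miRNAs had a median of 0.01, -0.38 with the percentile over the miRNAs detected on both arrays, and 0 of them exceeded 2 error estimates, against 53.1% of all 162, while with that percentile 1, miR-30d, did so downward.

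In the miR-17-92 cluster and its paralogs 10 of 11 detected members were above 0, against 63.6% of all 162, with a median of 0.34, which was -0.04 with the percentile over the miRNAs detected on both arrays. The exception was miR-92a at -0.48 ± 0.15, with total signals of 223 and 116, beside miR-19b of the same cluster at 0.46 ± 0.15 with 1278 and 347. These clusters are transcribed as a single precursor, from which the mature miRNAs are cut.

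The miRNAs with PCR assays, let-7g included, numbered 21. All 21 were detected on both arrays and within 2-fold, from -0.37 ± 0.32 for miR-489 to 0.50 ± 0.17 for miR-29b. Their median was 0.21, and 4 of the 21 differed by more than 2 error estimates, all upward, against 30.2% upward of all 162. With the percentile over the 162 miRNAs 0 did so upward and 5 downward. The study chose these miRNAs with these arrays in view, in part for a small difference at 0 mo, so their closeness is no independent result.

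Cattle miRNAs named miR-2284 to miR-2487, most of them first described in cattle, were also taken as a set. Of the 286 on the array, 39 were detected on the array labelled housed and 32 on the array labelled grazing, against 30.4% and 22.4% of all 744 miRNAs. The 29 detected on both had a median of -0.45 after scaling, or 0.98 without, against 0.26 for the other 133, with 3 at least 2-fold higher on the array labelled housed and 6 on the array labelled grazing, beside 2 and 5 of the other 133.

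Many of them have GC-rich probes. With a GC share of 60% and over, the median was -0.49 for 22 cattle miRNAs and -0.28 for 43 others. Under 60% it was -0.26 for 7 and 0.35 for 90. They held 50.4% of the signal on the array labelled housed and 46.7% on the array labelled grazing, most of it miR-2478 and miR-2412.

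**Figure D4:**
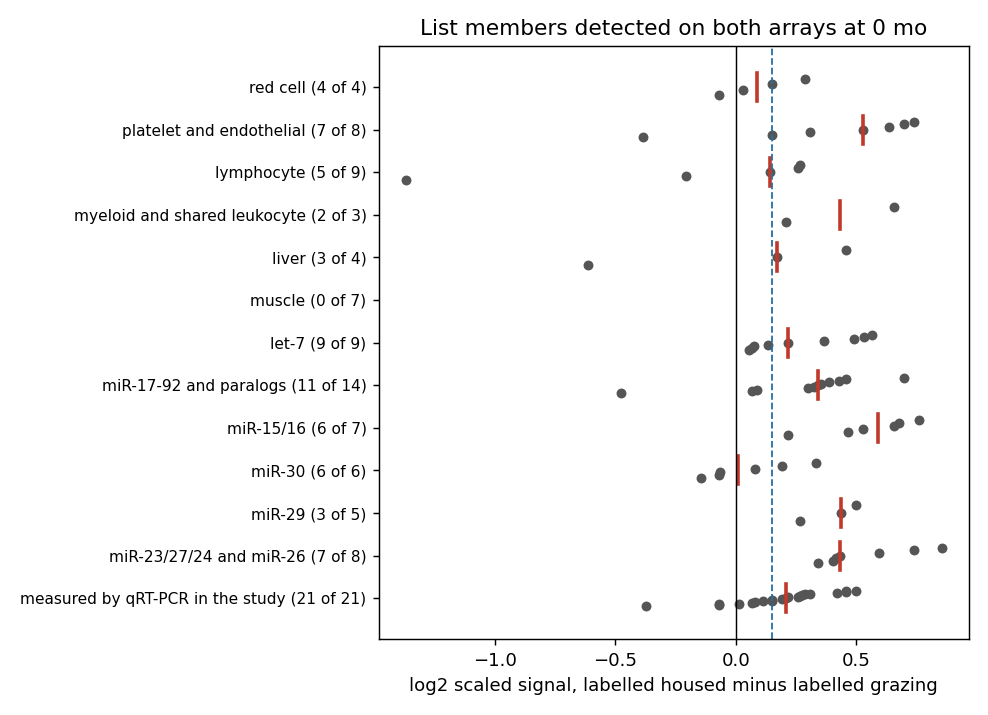
Level difference (log2 scaled signal, labelled housed minus labelled grazing) of the list members detected on both arrays, 1 point each, with the number detected of the number listed beside each name. Red bars are list medians and the dashed line is the median of 0.15 over all 162 miRNAs, and the miR-15/16 list has the highest median.

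The difference between the labels at 0 mo was set beside that at 1, 2 and 4 mo, when the treatments differed. By the headings of the study's value table the labels are exchanged at these months too. The later arrays held pools of the same steers. The level difference at 0 mo had a Spearman's rho of 0.53 with that of 1 mo, 0.21 with that of 2 mo and 0.56 with that of 4 mo, over the 143 miRNAs with a flag on every array. These are descriptions over miRNAs that share their probes, and the position of the arrays on the slide ran with the label at every month. Of these 143, the number at least 2-fold apart was 8, 9, 8 and 17 at 0, 1, 2 and 4 mo.

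The array labelled housed was also the brighter at 1 and 4 mo, by ratios of summed signal of 1.85 and 1.76, against 2.75 at 0 mo, but not at 2 mo, when the ratio was 0.982. The relation of the level difference with GC share of the probe was present at every month, with rho values of -0.55, -0.35, -0.31 and -0.53 in order of time over the same 143 miRNAs.

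The high values of the miRNAs with C or T runs were those of 0 mo. All 5 miRNAs at least 2-fold higher on the array labelled housed at 0 mo were detected on all 8 arrays, and 0 of them kept a positive difference at all 3 later months. Of the 11 higher on the array labelled grazing, 3 were detected on all 8 arrays, of which 2 kept a negative difference at all later months and 3 were again at least 2-fold lower on the array labelled housed at 4 mo. Over all 143 miRNAs, 68 had the same sign at every month. miR-2412 had level differences of 1.67, 0.20, -0.35 and -1.45 at 0, 1, 2 and 4 mo. Its total signal was 34152 on the array labelled housed 0 mo and between 1327 and 4876 on the other 7 arrays. Over the 9 miRNAs with C or T runs detected on all 8 arrays, the median difference was 0.69 at 0 mo and -0.23, -0.08 and -0.75 at 1, 2 and 4 mo.

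The total signal of miR-6530, 31.1 at its highest, was between 0.107 and 4.10 on the other 7 arrays, and that of miR-2406, 81.2 at its highest, between 7.56 and 16.2. miR-6528 was the exception, since 2 arrays labelled housed, with 1346 at 0 mo and 1195 at 1 mo, stood above the other 6, which lay between 122 and 304.

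Of the 11 miRNAs with ACACAC, 10 were also highest at 0 mo, on the other array. The total signal of miR-2304 was 54.1 on the array labelled grazing 0 mo, between 14.7 and 20.1 on the other arrays labelled grazing, and between 5.04 and 14.5 on the arrays labelled housed. At 2 mo its signals of 14.8 and 13.7 were close together. miR-574 lay between 18.2 and 54.1 labelled grazing and between 9.05 and 17.1 labelled housed. The arrays of each label did not overlap for these 2, as for 3 of all 744 miRNAs (0.403%) with labelled grazing the higher. But the nearest signals were 14.7 and 14.5 for miR-2304 and 18.2 and 17.1 for miR-574. They lay closer than the error estimates on the array labelled housed 0 mo, 2.12 for miR-2304 and 2.24 for miR-574. Of the 11 miRNAs with this repeat, the total signal was higher on the array labelled grazing for 11, 7, 4 and 10 in order of time. Over all 744 miRNAs the shares so directed were 20.8%, 27.6%, 50.4% and 37.0%.

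**Figure D5:**
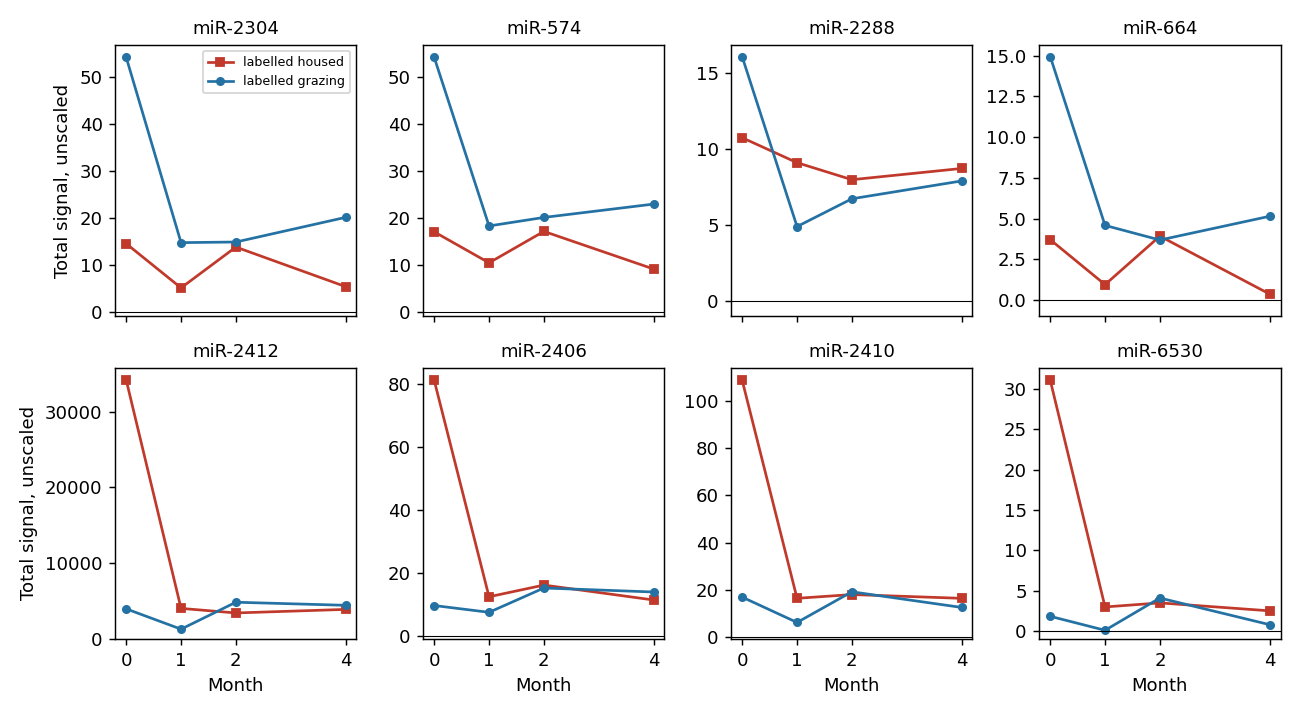
Unscaled total signal of 4 miRNAs with ACACAC in the probe (upper row) and 4 with a C or T run (lower row) on the arrays labelled housed (squares) and labelled grazing (circles) at 0, 1, 2 and 4 mo, 1 pool per point. The upper row is highest on the array labelled grazing 0 mo and the lower row on the array labelled housed 0 mo.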

How the data were processed

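Each array was hybridized by the authors with Cy3-labelled RNA of 3 pooled steers, on a custom design of miRBase release 19, and read with Agilent's Feature Extraction (version 10.7.3.1, per the submitters' processing notes). The deposited scanner files hold intensity values, background-subtracted and not normalized between arrays, with detection flags. The deposited series table holds a ratio per miRNA, the signal over 1 factor per array, linear and not centred. Its 8 columns were used and 0 left out, 730 of 743 names matched, and the column medians were 0.000664 (labelled housed) and 0.00187 (labelled grazing). Which values the factor was taken over is not given in the sources used here. No spot of the 2 arrays was saturated.

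From the intensity values, levels, error estimates and shares were computed with Python 3.11.15, pandas 2.3.3, numpy 2.4.6 and scipy 1.17.1, and the difference script was tested on simulated data. With 1 array per group no test was run, and a miRNA was called at 2-fold. The normexp alternative (offset 50) used limma 3.58.1 in R 4.3.3. The other alternatives changed the scaling, the detection rule, the fold and the set behind the shares. For 583 of the 744 longest probes, the span given on UMD_3.1 is 1 base shorter than the probe.

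Named miRNAs are the 12 highest shares of either array, the 10 largest differences each way, the 5 brightest of each single array, and listed miRNAs. The arrays, lists and rules were chosen with earlier results of these data known. Mature sequences, PCR values of single steers and muscle are not analysed here.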

Additional observations from a re-analysis of the deposited data

How the results depend on the processing

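Every comparison rests on 1 pool per label, and the error estimates cover the spots of an array, so none of the differences has a check between steers or arrays. No paired analysis was possible because each group at 0 mo has 1 array. Depth limits the dim miRNAs most, since the lowest flagged total signals were 4.00 and 3.75.

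The median level difference of 0.15 became -0.23 with the 90th percentile over the miRNAs detected on both arrays, -0.067 with let-7g as reference, 1.57 without scaling and 1.52 on the scale of the spike-in probes, an alternative chosen after seeing the data. At least 2-fold higher on the array labelled housed were 2 miRNAs in place of 5 with the percentile over both, 10 after quantile normalization, 124 without scaling, 119 on the spike-in scale, 3 with detection by well above background on most spots, 2 with a signal of at least 30 on both arrays and 11 with undetected values at a floor. With normexp there were 7. The 11 higher on the array labelled grazing became 23 with the percentile over both, 18 with let-7g, 2 without scaling, 2 on the spike-in scale, 3 with normexp, 4 with detection by well above background, 0 with a signal of at least 30 on both and 3 of those detected on all 8 arrays. At 1.5-fold the counts were 26 and 25. The difference between the medians of the GC classes of 60% and over and under 40%, -0.82, was -0.63 after quantile normalization, -0.43 with the floor and -0.60 over the miRNAs detected on all 8 arrays. Another scaling factor moves every level difference by the same amount. Filters test fewer miRNAs. For the other moves the cause was not tested.

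Without scaling, miR-181b (0.052), miR-188 (0.11), miR-2356 (0.12) and miR-2382-3p (0.13) turned positive, and on the spike-in scale miR-188 (0.054), miR-2356 (0.063) and miR-2382-3p (0.073) did. With normexp the share of miR-2412 on the array labelled grazing was 6.22%, and the 20 brightest miRNAs held 77.9% (labelled housed) and 77.5% (labelled grazing) in place of 81.7% and 84.3%. On the array labelled grazing they held 83.7% with all signals above 0 counted, and without miR-2478 and miR-2412 the shares were 69.1% and 75.5%. Counts of detected miRNAs stayed within 1.5 times, and the correlations with later months moved by less than 0.1 under the alternatives run for them. The GC share of mature sequences was not run.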
